A study of Mus musculus with 11 samples.

Results

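Translation initiation and elongation factors are the proteins that load the ribosome onto an mRNA, find the start codon and feed it with charged tRNA. They were followed here through their mRNAs on the ribosomes of forebrain excitatory neurons in young mice. The genes were chosen by name, as every measured mouse gene whose symbol starts with Eif or Eef followed by a number. Of 79 such genes, 10 pseudogenes and the Y-linked copy Eif2s3y were set aside, which left 68 of the 77179 genes in the table. Of the 68, 65 reached at least 1 TPM in at least 2 libraries, 53 of them Eif and 12 Eef genes, and 3 did not (Eef1akmt3, Eif4e1b and Eif2c5, the last of which is listed at 0 in every library). TPM is the share of a gene among all transcripts of a library on a fixed scale, corrected for transcript length, so levels may be compared between genes. Eif2ak2 and Eif4ebp3 passed only because both input libraries were above 1 TPM, with 0.355, 0.277 and 0.327 TPM in IP against 2.76 and 2.29 TPM in input at P7 for Eif2ak2 and 0.442, 0.488 and 0.089 TPM in IP against 2.80 and 1.64 TPM in input for Eif4ebp3. Eef1akmt4, at 1.87, 1.90 and 1.36 TPM in IP at P7, had the next lowest mean over all libraries, and Eef1akmt3, just outside the limit, had at most 0.359 TPM in any library.

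The animals were bred from a NEX-Cre line, kept on C57BL/6J, and RiboTag reporter mice. In these mice Cre is made from the Neurod6 (NEX) locus, which is active in excitatory neurons of the cortex and hippocampus, and turns on Rpl10a, a protein of the large ribosomal subunit, in a form fused to GFP. The IP libraries were 3 each for P7, P14 and P21 (postnatal day 7, 14 or 21) of the genotype NEX-Cre;Rpl10aeGFP/eGFP, made from RNA pulled down with the tagged ribosomes from dissected cortex and hippocampus. They were set against 2 whole-lysate libraries (input) at P7, of which replicate 1 had the genotype NEX-Cre;Rpl10aeGFP/eGFP and replicate 2 the genotype Rpl10aeGFP/eGFP, without Cre. All animals therefore carried the tagged Rpl10a allele. The labels call the IP libraries biological replicates, and they give no sex.

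In initiation, eIF2 brings the initiator tRNA to the small ribosomal subunit, eIF3 and the eIF1 family hold that complex open for scanning, and the eIF4F complex of a cap-binding protein, a scaffold and a helicase connects it to the mRNA. In elongation, eEF1A delivers each charged tRNA, the eEF1B subunits recharge eEF1A with GTP, and eEF2 moves the ribosome forward. Neurons regulate these steps at synapses, where eEF2 kinase, the eIF4E-binding proteins and the eIF2alpha kinases are known points of control, and postnatal neurons and muscle are known to exchange eEF1A1 for its close relative eEF1A2.

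Depth cannot be read from TPM, so precision rests on the spread between libraries, and within groups the Pearson correlations of log2 values over genes lay between 0.988 and 0.994. Markers of other cell types were depleted in IP at P7. The 8 astrocyte markers summed to between 54.1 and 81.3 TPM in IP, against 735 to 825 TPM in input, and the 8 microglia markers summed to between 21.6 and 26.9 TPM in IP, against 183 to 232 TPM in input. Excitatory markers were not uniformly enriched, since 3 of 8 were higher in IP at P7 and 1 was lower. Within IP the oligodendrocyte markers summed to between 32.2 and 36.1 TPM at P7, between 300.4 and 406 TPM at P14 and between 506 and 725 TPM at P21, and all 8 were higher at P21 than at P7. Of the astrocyte markers 7 of 8 were higher at P21 than at P7, and their sum lay between 214 and 269 TPM at P21. Of all the markers, Opalin (an oligodendrocyte marker named after its values were seen) alone was listed at 0 anywhere, in 2 libraries. Mitochondrially encoded mRNA made up 0.677 to 0.879% of TPM in IP at P7, 2.03 to 2.35% at P14 and 1.96 to 2.67% at P21, against 11.5 and 13.3% in input. These shifts run alongside every comparison described here, and their part in the results was not tested.

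The 65 factors together made up 1.51 to 1.55% of all TPM in the P7 IP libraries, 1.26 to 1.31% at P14 and 1.18 to 1.22% at P21, against 1.21 and 1.27% in input. The 3 ages did not overlap, and the P7 input libraries lay within the range of the later IP ages. Eef1a1 was the most abundant, and its share of the summed TPM of the 65 genes was 29.9 to 30.5% at P7, 26.3 to 27.2% at P14 and 21.2 to 25.1% at P21 in IP, against 29.2 and 29.7% in input. The median level over the 65 genes was 73.2 TPM in IP at P7 and 80.6 TPM in input, against 6.61 and 10.1 TPM over all 19008 tested genes.

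Relative to P7, most factors were lower on the ribosomes of excitatory neurons at P21 in the main fit, though not in every alternative fit. Of the 65, 39 were lower and 8 were higher at P21 than at P7 (limma, adjusted p below 0.05), where 32.6% of all tested genes were lower and 27.3% were higher. The median change was -0.23 on the log2(TPM + 1) scale for the factors and -0.04 for all tested genes. That scale is used for every difference below and understates changes of genes with low values. The factors lie well above most tested genes in level, so the shares of all genes are not matched to them. Among the 10856 genes with a mean of at least 5 TPM over all libraries, 4356 were lower and 3566 higher at P21 than at P7. With that filter 38 factors were lower and 7 higher, with a median of -0.24 against -0.06 for all genes kept. By week, at P14 relative to P7, 27 were lower and 9 higher (22.8% and 26.7% of all tested genes), with a median of -0.19 against 0.03 for all genes. At P21 relative to P14, 15 were lower and 4 higher (19.7% and 8.53% of all tested genes), with a median of -0.12 against -0.08. In a moderated F test over the 3 ages 45 of 65 differed, where 62.6% of all tested genes did. The third-week change differed from the second-week change for 13 of the 65 factors, a smaller share than among all tested genes (24.3%). It was upward for 9 (7.46% of all tested genes) and downward for 4 (16.8%). Both weekly steps were called lower for 10 genes and called higher for 2 (Eef1a2 and Eif4h), and 16 were called lower in the second week only. These patterns were not counted over all tested genes, so whether the counts are unusual is not known. The age comparisons share libraries and are not independent of each other. With median-of-ratios scaling the P21 against P14 calls became 8 lower and 7 higher (12.3% and 14.7% of all tested genes), and with leaving out single libraries the lower calls of that week ranged from 10 to 20.

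**Figure D1:**
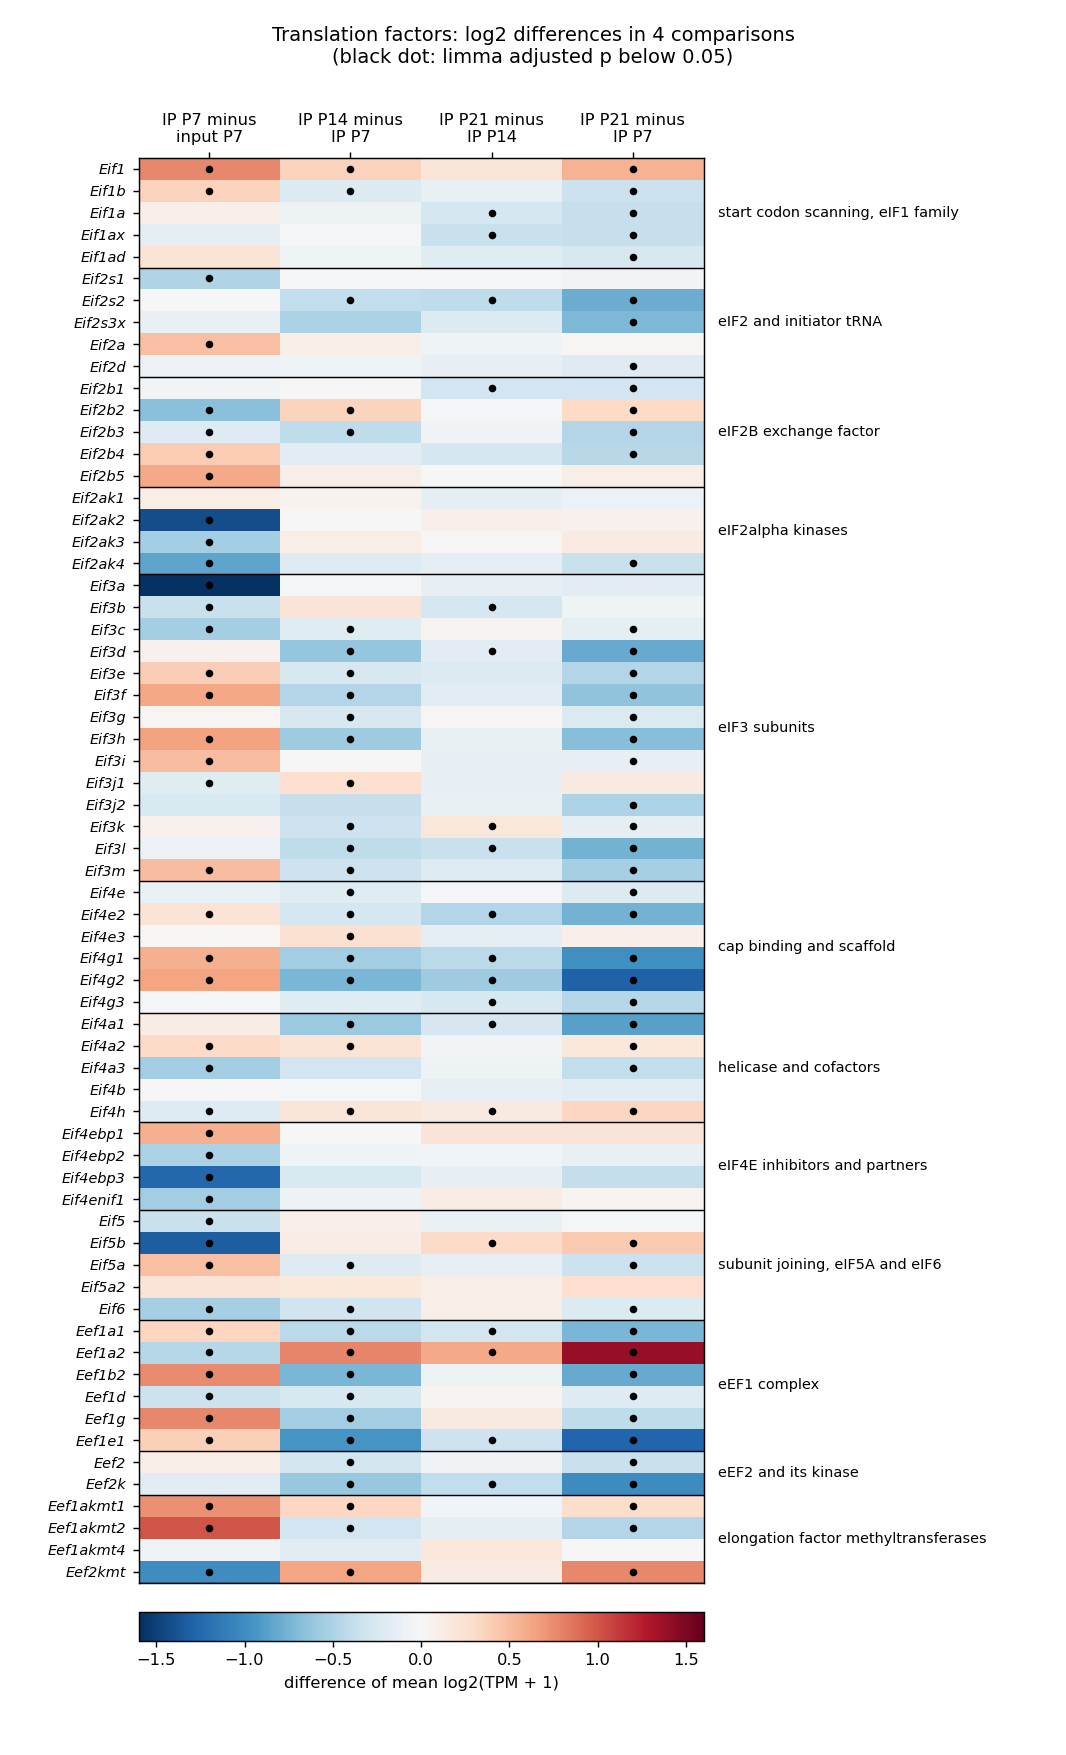
Difference of mean log2(TPM + 1) for the 65 translation factors (rows, grouped by role) in 4 comparisons (columns), with blue for lower and red for higher in the first-named group and a black dot where the limma adjusted p was below 0.05. The rightmost column is mostly blue, with 39 genes called lower and 8 called higher at P21 relative to P7, and the left column is mixed, with 22 higher and 21 lower in IP.

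The ribosome pull-down at P7 held some factors above and others below the level of whole tissue. Of the 65, 22 were higher and 21 lower in IP than in input, where 18.6% and 51.1% of all tested genes were. The 21 include Eif2ak2 and Eif4ebp3, which had passed through input alone and so had to differ. The median difference was 0.01 for the factors and -0.33 for all tested genes, and 47 of the 65 lay above the median of all genes. Among the 10856 genes with a mean of at least 5 TPM, 2844 were higher and 5421 lower in IP, with a median of -0.22. With that filter 21 factors were higher and 17 lower, with a median of 0.05. The split depended on the scaling: median-of-ratios scaling, which moved the median of all genes to -0.08, gave 38 higher and 12 lower (28.4% and 37.4% of all tested genes). Quantile normalisation, which moved it to 0.03, gave 29 higher and 20 lower (32.9% and 31.7%). Leaving out mitochondrial, haemoglobin and ribosomal protein genes, which moved it to -0.44, gave 21 higher and 24 lower (3002 and 11042 of 19730 tested genes). Because whole tissue mixes cell types, fewer cells of a type and less RNA per cell cannot be told apart in the input values.

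The 2 genes for eEF1A, the carrier of charged tRNA, moved in opposite directions with age. IP samples contained 4629, 4658 and 4594 TPM of Eef1a1 at P7, 3319.7, 3383 and 3561 TPM at P14 and 2501, 2879.5 and 3038 TPM at P21, and the P7 input libraries held 3765 and 3518 TPM. For Eef1a2, the levels were 249, 309 and 298 TPM at P7, 475, 489 and 505 TPM at P14 and 802, 764 and 678 TPM at P21 in IP, against 350.0 and 432 TPM in input at P7. The 3 ages did not overlap for either gene. Eef1a2 was higher at P21 than at P7 by 1.39 ± 0.10 (SE, adjusted p = 7.47e-07), in both weeks by 0.78 ± 0.10 (SE, adjusted p = 9.19e-05) and then 0.61 ± 0.10 (SE, adjusted p = 0.00162). Eef1a1 was lower at P21 than at P7 by -0.73 ± 0.07 (SE, adjusted p = 7.97e-06). Its second-week difference was -0.44 ± 0.07 (SE, adjusted p = 0.000524) and its third-week difference -0.29 ± 0.07 (SE, adjusted p = 0.0132). The third-week call did not hold without P14 replicate 3 (-0.26, adjusted p = 0.0541), under median-of-ratios scaling (-0.17, adjusted p = 0.0937) or when P14 and P21 were fitted alone (-0.29, adjusted p = 0.0527). Eef1a2 therefore made up 5.80 ± 0.618% of the summed TPM of the pair at P7, 12.5 ± 0.104% at P14 and 21.2 ± 3.02% at P21 (SD, n = 3 each), against 9.72 ± 1.72% in input (SD, n = 2). The summed TPM of the pair was 4912 ± 48.0 at P7, 3911 ± 139.5 at P14 and 3554 ± 220.4 at P21. Against whole tissue at P7, Eef1a1 was higher in IP by 0.35 ± 0.08 (SE, adjusted p = 0.00287) and Eef1a2 lower by -0.45 ± 0.11 (SE, adjusted p = 0.00425). The Eef1a2 call did not hold without input replicate 2 (-0.30) or under median-of-ratios scaling (-0.17, adjusted p = 0.226). It also did not hold without the 4 libraries with Xist, given with Eif2s3x (-0.33). Both fits that omit libraries rest on input replicate 1 alone.

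The starts of both genes are shown because their levels moved in opposite directions with age. The RefSeq windows (GRCm38.p6) run from 100 bases before to 30 bases after the listed start on the minus strand, chr9:78481695-78481824 for Eef1a1 and chr2:181156986-181157115 for Eef1a2, and capitals mark a TATA-like match (TATAAA or TATATAA).
Eef1a1: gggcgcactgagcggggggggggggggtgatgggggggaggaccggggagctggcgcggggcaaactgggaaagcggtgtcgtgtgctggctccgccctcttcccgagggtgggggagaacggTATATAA
Eef1a2: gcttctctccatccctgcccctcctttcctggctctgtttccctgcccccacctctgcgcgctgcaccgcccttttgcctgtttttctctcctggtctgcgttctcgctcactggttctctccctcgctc
The Eef1a1 window holds TATATAA, whose first base lies at position 24 counted from the listed start, and the Eef1a2 window holds neither form. A match describes the letters and not a binding site, and the distance to the true start of transcription is not known from this table.

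Of the remaining eEF1 genes, those for the nucleotide exchange subunits fell in the second week. Eef1b2 stood at 670.0, 603 and 639 TPM in the P7 IP libraries, 382, 372 and 401 TPM at P14 and 333, 389.8 and 371 TPM at P21, against 371 and 379 TPM in the input libraries. IP samples contained 642, 587 and 552 TPM of Eef1g at P7, 413, 389 and 404 TPM at P14 and 414, 454 and 469 TPM at P21, and the P7 input libraries held 369 and 326 TPM. Every P7 IP library was above every other library for both genes. Eef1b2 was lower at P14 than at P7 by -0.73 ± 0.06 (SE, adjusted p = 6.46e-06) and Eef1g by -0.56 ± 0.07 (SE, adjusted p = 9.41e-05), whereas their third-week differences of -0.08 and 0.15 did not pass the test. Both were higher in IP than in input at P7, by 0.76 ± 0.07 (SE, adjusted p = 4.73e-06) for Eef1b2 and 0.77 ± 0.08 (SE, adjusted p = 1.05e-05) for Eef1g. Eef1d, another exchange subunit, was at 103 ± 7.90 TPM in IP and 131 ± 6.33 TPM in input at P7 (SD, n = 3 and 2), a difference of -0.35 ± 0.07 (SE, adjusted p = 0.000752), close to the median of all genes and lost with median-of-ratios scaling (-0.07, adjusted p = 0.429). Eef1e1, an auxiliary protein of the aminoacyl-tRNA synthetase complex despite its name, had the second largest fall over the 2 weeks. For Eef1e1, the levels were 47.5, 47.1 and 48.9 TPM at P7, 23.3, 25.2 and 24.8 TPM at P14 and 20.9, 18.9 and 17.9 TPM at P21 in IP, against 35.5 and 37.6 TPM in input at P7. It was lower at P21 than at P7 by -1.27 ± 0.06 (SE, adjusted p = 5.24e-08), and each age lay below the one before it.

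eEF2 and the kinase that inactivates it both had lower levels at P21. Eef2 stood at 900.2, 923 and 869.8 TPM in the P7 IP libraries, 698, 732 and 759 TPM at P14 and 611, 737 and 766 TPM at P21, against 856 and 806 TPM in the input libraries. IP samples contained 36.7, 39.1 and 34.0 TPM of Eef2k at P7, 23.0, 25.3 and 22.5 TPM at P14 and 15.0, 17.98 and 20.5 TPM at P21, and the P7 input libraries held 43.9 and 38.9 TPM. P21 lay wholly below P7 for both genes, while P21 and P14 overlapped for Eef2. Eef2k was lower at P21 than at P7 by -1.005 ± 0.10 (SE, adjusted p = 1.05e-05), and Eef2 by -0.36 ± 0.08 (SE, adjusted p = 0.00252). The third-week call of Eef2k (-0.39 ± 0.10 (SE, adjusted p = 0.0171)) did not hold without P14 replicate 2 (adjusted p = 0.0655) or P21 replicate 1 (0.0527), for an unfiltered table (0.0538), or under median-of-ratios (0.055) or quantile scaling (0.0597).

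The lysine methyltransferases that act on elongation factors did not move together. Eef2kmt, which methylates eEF2, had low levels, of 1.11, 1.95 and 1.32 TPM at P7, 3.11, 2.48 and 2.79 TPM at P14 and 2.82, 3.18 and 3.41 TPM at P21 in IP, against 4.40 and 3.36 TPM in input. It was lower in IP than in input at P7 by -0.99 ± 0.16 (SE, adjusted p = 0.000213) and higher at P21 than at P7 by 0.76 ± 0.14 (SE, adjusted p = 0.000753). Eef1akmt2, a methyltransferase of eEF1A, had the largest excess in IP of the 65 genes. For Eef1akmt2, the levels were 103, 93.7 and 90.4 TPM at P7, 72.9, 75.6 and 82.7 TPM at P14 and 65.2, 65.8 and 76.1 TPM at P21 in IP, against 46.9 and 46.8 TPM in input at P7. Its difference from input was 1.01 ± 0.08 (SE, adjusted p = 1.91e-06), and it was lower at P21 than at P7 by -0.47 ± 0.07 (SE, adjusted p = 0.000276). Eef1akmt1, which methylates eEF1A at another lysine, was also higher in IP than in input. Eef1akmt1 stood at 91.9, 103 and 95.8 TPM in the P7 IP libraries, 127, 116 and 124 TPM at P14 and 122, 118 and 114 TPM at P21, against 58.2 and 58.1 TPM in the input libraries. It differed from input by 0.73 ± 0.06 (SE, adjusted p = 2.07e-06) and was higher at P14 than at P7 by 0.33 ± 0.05 (SE, adjusted p = 0.000438).

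**Figure D2:**
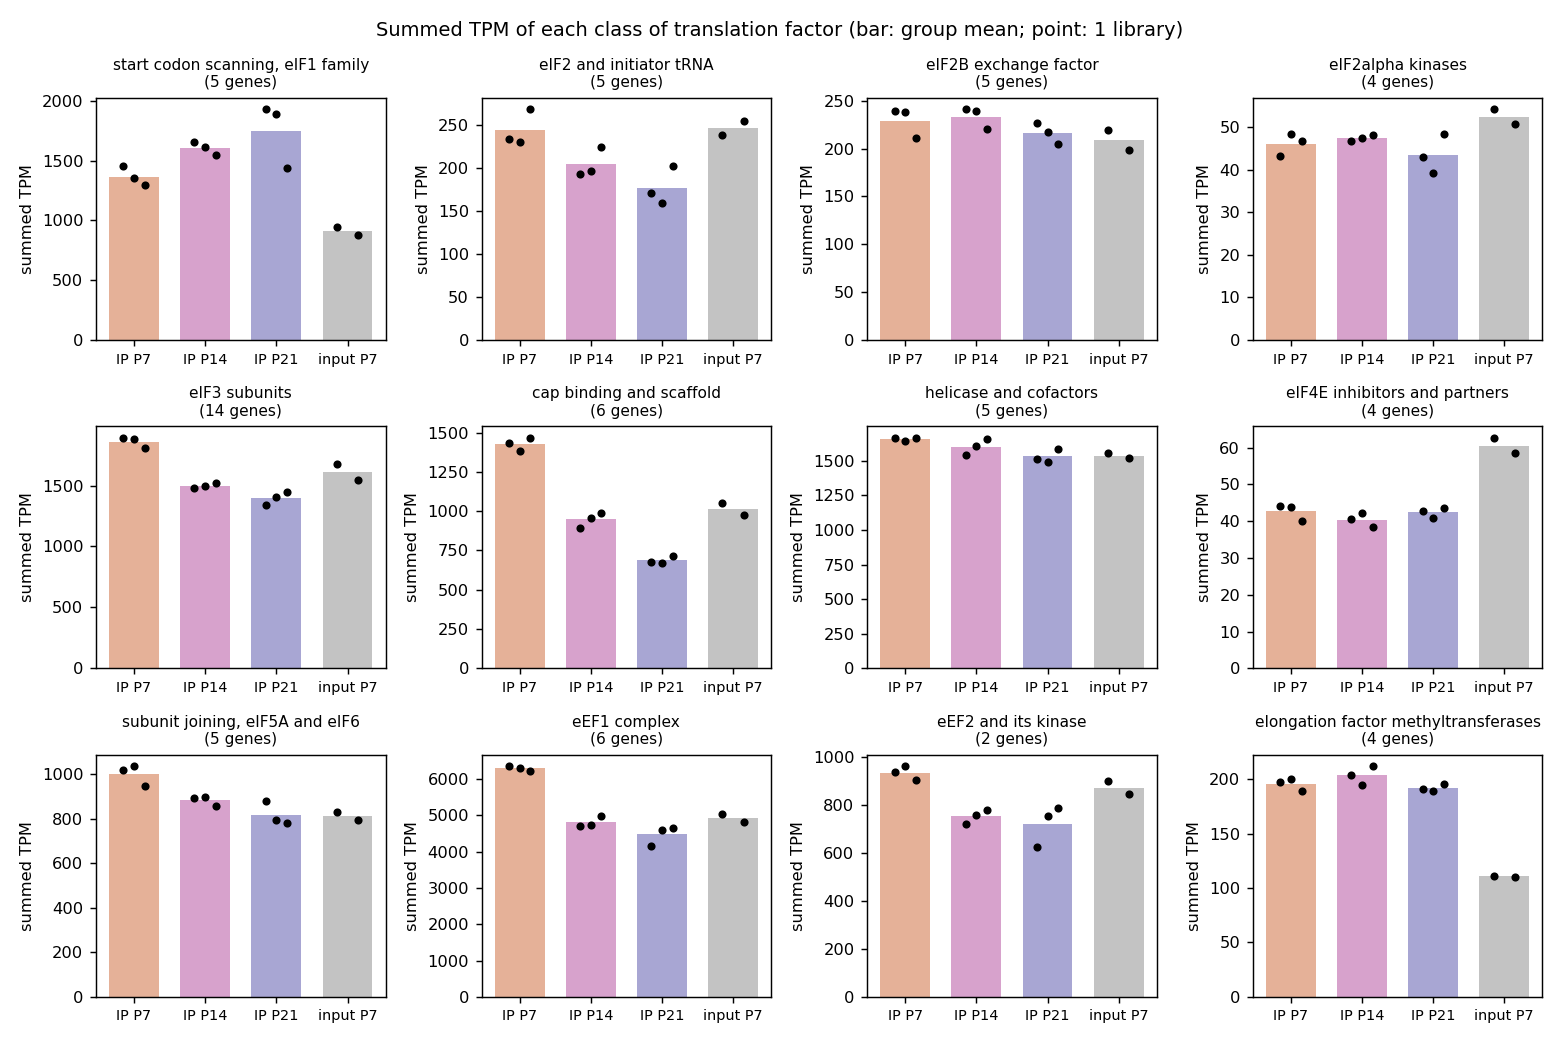
Summed TPM of the genes in each of 12 roles (panels, linear axes from 0), with bars for the group mean and points for single libraries, for IP at P7, P14 and P21 and for input at P7. The cap binding and scaffold genes had means of 1428, 947 and 687 TPM at P7, P14 and P21, and the eIF4E inhibitors had means of 42.7, 40.5 and 42.5 TPM at the same ages, against 60.6 TPM in input.

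Among the initiation factors, the eIF1 family, which controls start codon selection, was led by Eif1. IP samples contained 1029.8, 958 and 907 TPM of Eif1 at P7, 1296, 1256 and 1185 TPM at P14 and 1593, 1574 and 1141 TPM at P21, and the P7 input libraries held 604 and 532 TPM. Every IP library was above both input libraries, and P21 replicate 3 lay below every P14 library. Eif1 was higher in IP than in input by 0.76 ± 0.13 (SE, adjusted p = 0.000386) and higher at P21 than at P7 by 0.56 ± 0.12 (SE, adjusted p = 0.00184). Its second-week rise of 0.37 ± 0.12 (SE, adjusted p = 0.0234) was lost without P7 replicate 2 (adjusted p = 0.0571), P7 replicate 3 (0.075), P14 replicate 1 (0.0713) or P14 replicate 2 (0.0582), in an unfiltered table (0.0753) and under median-of-ratios scaling (0.0642). The 4 other members were lower at P21 than at P7, where 32.6% of all tested genes were. Eif1b, the close relative of Eif1, had 277, 247 and 229.7 TPM at P7, 217, 212 and 213 TPM at P14 and 214, 203 and 178 TPM at P21 in IP, against 188 and 198 TPM in input, and differed by -0.34 ± 0.08 (SE, adjusted p = 0.00337). Eif1a and Eif1ax, 2 genes for eIF1A, which promotes scanning together with eIF1, differed by -0.36 and -0.37, and Eif1ad, named for its eIF1A-like domain, by -0.26. The Eif1ad call was lost without P7 replicate 1 (adjusted p = 0.0855), P7 replicate 3 (0.0596), P21 replicate 2 (0.0974) or P21 replicate 3 (0.0887), and with an unfiltered table (adjusted p = 0.0757), the Xist libraries left out (0.171), quantile scaling (-0.21, adjusted p = 0.0532) and median-of-ratios scaling (-0.19, adjusted p = 0.0992).

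The 3 subunits of eIF2 differed in their course. Eif2s1 encodes the alpha subunit, whose phosphorylation slows initiation, and it had 18.3, 21.5 and 22.4 TPM at P7, 19.5, 21.7 and 19.4 TPM at P14 and 19.6, 17.8 and 22.6 TPM at P21 in IP, with no call over age. Eif2s2, the beta subunit, was lower in both weeks. For Eif2s2, the levels were 85.9, 80.3 and 80.7 TPM at P7, 63.9, 61.8 and 62.0 TPM at P14 and 49.96, 43.8 and 47.2 TPM at P21 in IP, against 83.5 and 79.8 TPM in input at P7. Each age lay below the one before it, with differences of -0.39 ± 0.05 (SE, adjusted p = 0.000176) in the second week and -0.41 ± 0.05 (SE, adjusted p = 0.000511) in the third. Eif2s3x, the X-linked gene for the gamma subunit, had 60.9, 59.7 and 95.0 TPM at P7, 42.1, 42.0 and 67.1 TPM at P14 and 39.3, 32.9 and 58.1 TPM at P21 in IP, against 64.5 and 90.8 TPM in input. In each IP age replicate 3 was well above the other libraries, as was replicate 2 of input. Those 4 libraries are also the ones with Xist at 1 TPM or more, at 28.8 TPM in input replicate 2 and between 3.29 and 6.02 TPM in replicate 3 of the IP ages, and with at most 0.525 TPM of the Y-linked Eif2s3y. The other libraries had 6.72 to 59.2 TPM of Eif2s3y, and P21 replicate 1 was intermediate, with 6.72 TPM of Eif2s3y and 0.646 TPM of Xist. Xist and Eif2s3y were chosen after their values were seen. Eif2s3x was lower at P21 than at P7 by -0.72 ± 0.26 (SE, adjusted p = 0.0347), a call lost without P7 replicate 3 (-0.50, adjusted p = 0.132), P21 replicate 1 (-0.67, adjusted p = 0.0912) or P21 replicate 2 (-0.55, adjusted p = 0.129), in an unfiltered table (adjusted p = 0.104) and with quantile normalisation (adjusted p = 0.0556). Without the 4 libraries with Xist the difference was -0.73 (adjusted p = 0.000612), and the second-week difference, -0.51 ± 0.26 (SE, adjusted p = 0.136) in all libraries, was -0.51 (adjusted p = 0.00422). In that subset, chosen after the data were seen, 36 of 63 tested factors were lower and 8 higher at P21 than at P7, where 32.2% and 25.8% of all tested genes were. In the same subset 20 factors were higher and 16 lower in IP than in input, where 16.9% and 42.8% of all tested genes were.

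Eif2a, which despite its name is no subunit of eIF2, was higher in IP than in input by 0.48 ± 0.08 (SE, adjusted p = 0.000278) and had no call over age. Eif2d, which acts in reinitiation, was lower at P21 than at P7 by -0.20 ± 0.08 (SE, adjusted p = 0.04), a call lost without any single P7 replicate, P14 replicate 3, P21 replicate 1 or P21 replicate 2, at adjusted p between 0.0508 and 0.146, and with an unfiltered table (adjusted p = 0.0855), the compared groups fitted alone (0.0727), no variance trend (0.0543), quantile scaling (-0.13, adjusted p = 0.111) and median-of-ratios scaling (-0.13, adjusted p = 0.0983).

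eIF2B recharges eIF2 with GTP, and the 5 genes for its subunits were split. Eif2b1, Eif2b3 and Eif2b4 were lower at P21 than at P7, by -0.31 ± 0.06 (SE, adjusted p = 0.00106), -0.46 ± 0.07 (SE, adjusted p = 0.000143) and -0.45 ± 0.11 (SE, adjusted p = 0.00386). Eif2b2, the beta subunit, was higher, by 0.32 ± 0.09 (SE, adjusted p = 0.0126), a call lost without P21 replicate 2 (0.25, adjusted p = 0.0534). Eif2b2 stood at 35.4, 34.0 and 31.6 TPM in the P7 IP libraries, 47.9, 41.9 and 40.4 TPM at P14 and 44.5, 46.7 and 36.5 TPM at P21, against 52.8 and 55.7 TPM in the input libraries. In IP at P7 Eif2b2 was lower than in input by -0.67 ± 0.11 (SE, adjusted p = 0.000207), and Eif2b5, the catalytic subunit, was higher by 0.61 ± 0.11 (SE, adjusted p = 0.000666). The eIF2alpha kinases were at low levels in IP, apart from Eif2ak1 (HRI). Eif2ak4 (GCN2), the sensor of amino acid shortage, stood at 3.66, 4.09 and 4.09 TPM in IP against 7.75 and 7.96 TPM in input at P7. Eif2ak3 (PERK), the sensor of endoplasmic reticulum stress, stood at 5.82, 5.50 and 5.65 TPM in IP against 8.499 and 8.91 TPM in input. Both were lower in IP, by -0.84 ± 0.09 (SE, adjusted p = 1.36e-05) and -0.54 ± 0.08 (SE, adjusted p = 0.000192), though with quantile normalisation the Eif2ak3 difference was 0.03 (adjusted p = 0.763). Eif2ak2 (PKR), which is activated by double-stranded RNA, differed by -1.41 and owed its place in the test to input. Eif2ak4 was the one kinase called over age, lower at P21 than at P7 by -0.35 ± 0.08 (SE, adjusted p = 0.00318).

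eIF3, the largest initiation factor, is built on an octamer of subunits a, c, e, f, h, k, l and m. Of these 8 genes, 7 were lower at P21 than at P7 and none was higher, with a median of -0.50, where 32.6% of all tested genes were lower. Of the 6 others (Eif3b, Eif3d, Eif3g, Eif3i, Eif3j1 and Eif3j2), 4 were lower, with a median of -0.18. Eif3d, whose product can itself bind the mRNA cap, had the largest fall. IP samples contained 104, 101 and 96.0 TPM of Eif3d at P7, 63.3, 67.4 and 64.2 TPM at P14 and 60.9, 51.9 and 58.6 TPM at P21, and the P7 input libraries held 98.2 and 92.6 TPM. It was lower at P21 than at P7 by -0.80 ± 0.06 (SE, adjusted p = 1.33e-06) and at P14 than at P7 by -0.62 ± 0.06 (SE, adjusted p = 1.81e-05). Eif3l and Eif3h followed, with -0.76 ± 0.05 (SE, adjusted p = 5.04e-07) and -0.68 ± 0.08 (SE, adjusted p = 3.78e-05). The octamer gene without a call was Eif3a, at -0.17. Eif3a, the scaffold subunit, instead had the largest deficit in IP of the 65 genes. For Eif3a, the levels were 29.2, 38.5 and 28.7 TPM at P7, 31.8, 31.7 and 30.1 TPM at P14 and 30.3, 27.9 and 26.8 TPM at P21 in IP, against 106 and 89.8 TPM in input at P7. Its difference from input at P7 was -1.59 ± 0.12 (SE, adjusted p = 1.14e-06), and it had no call over age. Other subunits lay on the other side, with Eif3h at 0.64 ± 0.09 (SE, adjusted p = 0.000113) and Eif3f at 0.62 ± 0.07 (SE, adjusted p = 2.24e-05) higher in IP. Eif3k was lower at P14 than at P7 (-0.34) and then higher at P21 than at P14. Eif3k stood at 239, 248 and 234 TPM in the P7 IP libraries, 190.0, 184 and 197 TPM at P14 and 211, 223 and 213 TPM at P21, against 232 and 225 TPM in the input libraries. The third-week rise was 0.18 ± 0.04 (SE, adjusted p = 0.0128), and it was lost without P14 replicate 2 (0.15, adjusted p = 0.0598). Its call at P21 against P7 (-0.16 ± 0.04 (SE, adjusted p = 0.0111)) was lost with median-of-ratios scaling (-0.08, adjusted p = 0.188). Eif3j1 and Eif3j2 are near-identical copies whose reads can be divided between them, so their values are uncertain. At P21 against P7, the call of Eif3c (-0.15 ± 0.05 (SE, adjusted p = 0.0212)) was lost without P7 replicate 2, P7 replicate 3 or P21 replicate 2, at adjusted p between 0.0503 and 0.077, and with the compared groups fitted alone (adjusted p = 0.053), the Xist libraries left out (0.0868), quantile scaling (-0.09, adjusted p = 0.109) and median-of-ratios scaling (-0.08, adjusted p = 0.165). The call of Eif3i (-0.13 ± 0.05 (SE, adjusted p = 0.0364)) was lost without replicate 1 or 2 of P7, replicate 2 or 3 of P14, or replicate 1 or 2 of P21, at adjusted p between 0.0504 and 0.111, and with an unfiltered table (adjusted p = 0.0654), the compared groups fitted alone (0.0669), no variance trend (0.0835), the replicate block (0.0548) and median-of-ratios scaling (-0.05, adjusted p = 0.305). The call of Eif3j2 (-0.49 ± 0.18 (SE, adjusted p = 0.0335)) was lost without replicate 2 or 3 of P7 or of P21, at adjusted p between 0.0667 and 0.123, and with an unfiltered table (adjusted p = 0.0897), the Xist libraries left out (0.17), quantile scaling (-0.44, adjusted p = 0.0613) and median-of-ratios scaling (-0.43, adjusted p = 0.0523). Eif3b was lower in IP than in input by -0.36 ± 0.09 (SE, adjusted p = 0.00532), a call lost without input replicate 1 (adjusted p = 0.0514) and with median-of-ratios scaling (-0.08, adjusted p = 0.52).

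**Figure D3:**
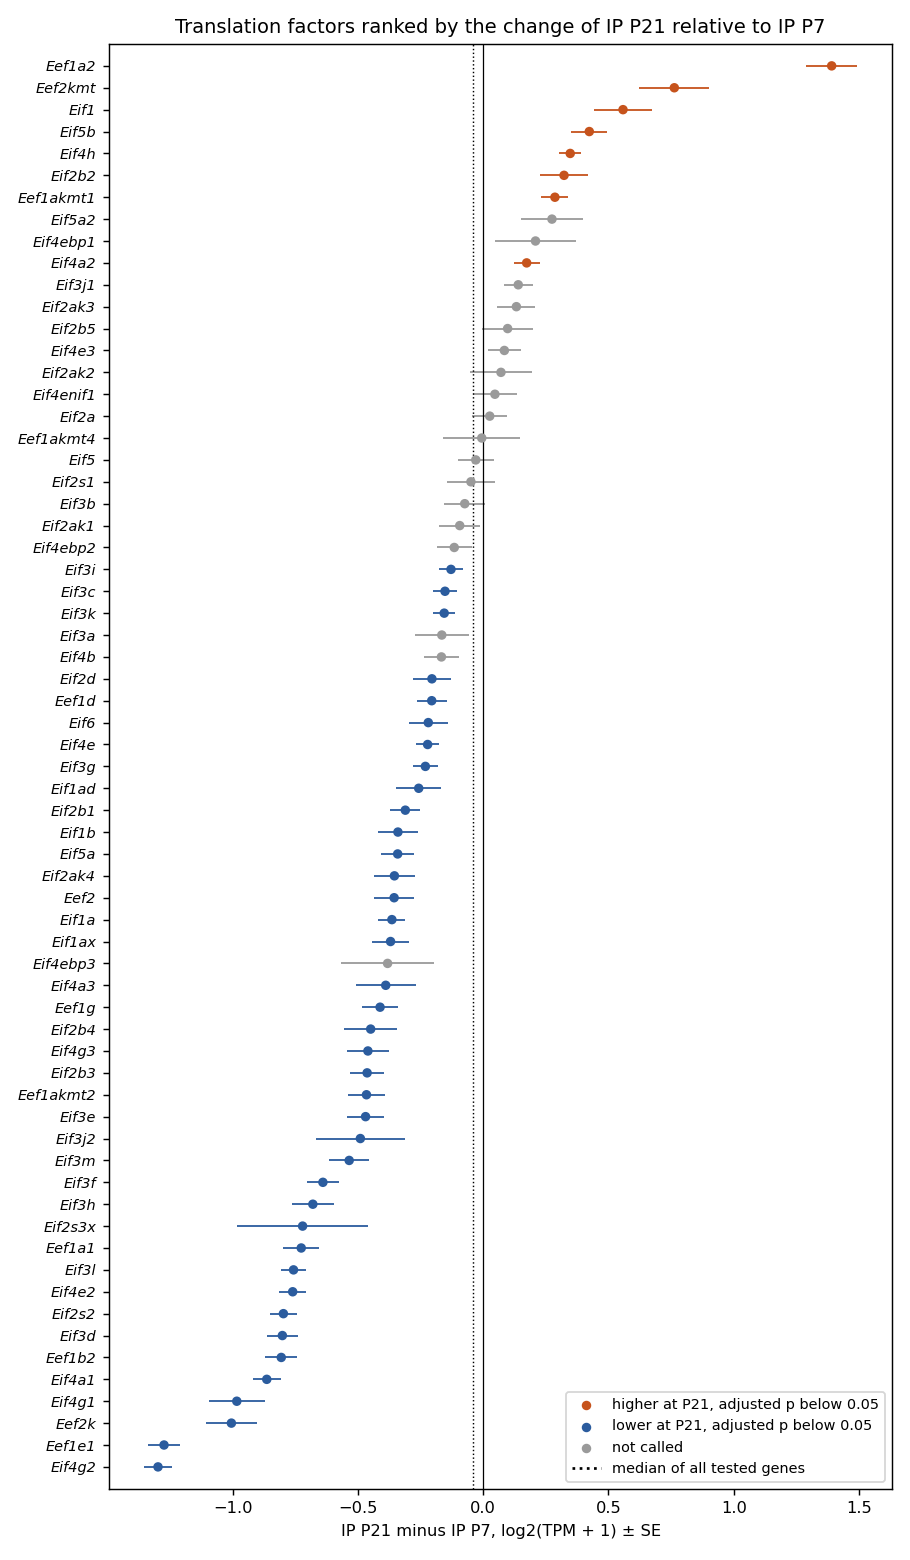
Change of each of the 65 translation factors at P21 relative to P7 in IP, ranked, on the log2(TPM + 1) scale with the standard error of the limma fit (n = 3 libraries per age) and the median of all tested genes as a dotted line. Eef1a2 stands alone at the top at 1.39, and Eif4g2 and Eef1e1 stand at the bottom at -1.30 and -1.27.

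All 3 genes of the eIF4G scaffold family were lower at P21 than at P7, where 32.6% of all tested genes were. Eif4g2 encodes DAP5, a relative of eIF4G that lacks the binding site for the cap-binding protein eIF4E. IP samples contained 941, 963 and 974 TPM of Eif4g2 at P7, 547, 588 and 602 TPM at P14 and 374, 385 and 411 TPM at P21, and the P7 input libraries held 643 and 592 TPM. Each age lay wholly below the one before it, and Eif4g2 was lower at P21 than at P7 by -1.30 ± 0.05 (SE, adjusted p = 2.36e-08), the largest fall among the factors. Eif4g1 encodes the main scaffold, eIF4GI. For Eif4g1, the levels were 225, 166 and 209 TPM at P7, 118, 138 and 150.4 TPM at P14 and 104, 95.7 and 99.4 TPM at P21 in IP, against 136 and 130.5 TPM in input at P7. Eif4g1 was lower at P21 than at P7 by -0.98 ± 0.11 (SE, adjusted p = 2.19e-05). Its third-week call (-0.43 ± 0.11 (SE, adjusted p = 0.0158)) was lost without P14 replicate 2 (adjusted p = 0.0504), P14 replicate 3 (0.0629) or P21 replicate 2 (0.0548), and with an unfiltered table (adjusted p = 0.0551), the Xist libraries left out (0.145) and median-of-ratios scaling (-0.32, adjusted p = 0.0598). Eif4g3, the second eIF4G gene, was at 85.1, 73.3 and 90.7 TPM at P7, 67.3, 72.8 and 76.0 TPM at P14 and 58.4, 57.4 and 64.0 TPM at P21 in IP, against 89.5 and 80.3 TPM in input, and was lower at P21 than at P7 by -0.46 ± 0.08 (SE, adjusted p = 0.000723). Both Eif4g2 and Eif4g1 were higher in IP than in input at P7, by 0.64 ± 0.06 (SE, adjusted p = 5.97e-06) and 0.57 ± 0.12 (SE, adjusted p = 0.00193). The Eif4g1 call was lost without the 4 libraries with Xist (0.51), a fit that rests on input replicate 1 alone.

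Of the cap-binding proteins, Eif4e2 (4EHP), which competes for the cap and represses translation, was lower in both weeks. Eif4e2 stood at 88.8, 83.4 and 89.7 TPM in the P7 IP libraries, 70.8, 70.1 and 73.2 TPM at P14 and 54.3, 48.4 and 50.7 TPM at P21, against 77.9 and 72.5 TPM in the input libraries. Eif4e2 was lower at P21 than at P7 by -0.76 ± 0.05 (SE, adjusted p = 7.13e-07). Eif4e, the cap-binding protein of the eIF4F complex, had 86.3, 87.4 and 92.6 TPM at P7, 76.4, 77.8 and 78.2 TPM at P14 and 76.3, 73.9 and 77.7 TPM at P21 in IP, against 98.5 and 92.1 TPM in input. Its P21 against P7 difference was -0.22 ± 0.05 (SE, adjusted p = 0.00159). Eif4e3, a further relative with 9.53, 9.06 and 10.3 TPM at P7, 11.8, 11.8 and 11.0 TPM at P14 and 10.8, 9.76 and 10.2 TPM at P21 in IP, against 9.35 and 9.47 TPM in input, was higher at P14 than at P7 by 0.24 ± 0.07 (SE, adjusted p = 0.0121) and showed no call at P21 against P7. The excess of Eif4e2 in IP at P7, 0.21 ± 0.06 (SE, adjusted p = 0.00936), did not pass with mitochondrial, haemoglobin and ribosomal protein genes set aside (adjusted p = 0.1). Nor did it pass when input replicate 2 was omitted (difference 0.16) or the Xist libraries were left out (difference 0.14). Both of these fits rest on input replicate 1 alone.

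The 2 genes for the eIF4A helicase, which unwinds the mRNA leader, diverged with age. IP samples contained 592, 555 and 541 TPM of Eif4a1 at P7, 358, 380.2 and 381 TPM at P14 and 331, 293 and 303 TPM at P21, and the P7 input libraries held 526 and 507 TPM. For Eif4a2, the levels were 684, 698 and 723 TPM at P7, 788, 799 and 859 TPM at P14 and 764, 771 and 841 TPM at P21 in IP, against 564 and 566 TPM in input at P7. Eif4a1 was lower at P21 than at P7 by -0.86 ± 0.06 (SE, adjusted p = 3.7e-07) with no overlap between any 2 ages. Eif4a2 was higher by 0.17 ± 0.05 (SE, adjusted p = 0.0149), but this call was lost without P21 replicate 3 (0.13, adjusted p = 0.0531) and with quantile normalisation (0.03, adjusted p = 0.688). Eif4a3, a core protein of the exon junction complex, was lower at P21 than at P7 by -0.39 ± 0.12 (SE, adjusted p = 0.0161), a call lost without P7 replicate 1 (adjusted p = 0.0603) or P21 replicate 3 (adjusted p = 0.0614) and with an unfiltered table (adjusted p = 0.0509) and median-of-ratios scaling (-0.32, adjusted p = 0.0521). The helicase cofactor Eif4h rose. Eif4h stood at 218, 227 and 235 TPM in the P7 IP libraries, 250.4, 269 and 261 TPM at P14 and 287, 281 and 296 TPM at P21, against 263 and 261 TPM in the input libraries. Eif4h was higher at P21 than at P7 by 0.35 ± 0.04 (SE, adjusted p = 5.8e-05), with every P21 library above every P14 library. Its third-week step (0.15 ± 0.04 (SE, adjusted p = 0.0313)) lost the call without any 1 of 4 libraries (P14 replicates 1 and 3, P21 replicates 1 and 3), at adjusted p between 0.0675 and 0.104, and with an unfiltered table (adjusted p = 0.0598), no variance trend (0.0786) and the Xist libraries left out (0.175). The other cofactor, Eif4b, had no call in any comparison.

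The eIF4E-binding proteins, which block the cap-binding protein until mTOR phosphorylates them, had no call over age. Eif4ebp2, the main brain form, had 19.4, 16.1 and 17.0 TPM at P7, 17.3, 16.8 and 15.7 TPM at P14 and 16.3, 15.7 and 16.0 TPM at P21 in IP, against 25.4 and 25.2 TPM in input, and was lower in IP than in input by -0.51 ± 0.08 (SE, adjusted p = 0.00018), a call lost with quantile scaling (-0.16, adjusted p = 0.122). Eif4ebp1 had 5.23, 4.76 and 3.57 TPM at P7, 4.24, 5.56 and 3.84 TPM at P14 and 5.48, 6.31 and 4.35 TPM at P21 in IP, against 2.47 and 2.90 TPM in input, and was higher in IP by 0.57 ± 0.18 (SE, adjusted p = 0.0146), a call lost without input replicate 1 (0.49, adjusted p = 0.0952). Eif4ebp3 differed by -1.25 and owed its place in the test to input. Eif4enif1, a transporter of eIF4E, was lower in IP by -0.56 ± 0.10 (SE, adjusted p = 0.000427).

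Eif5b, which encodes the GTPase that joins the ribosomal subunits, had the largest deficit in IP after Eif3a and Eif2ak2. IP samples contained 7.00, 7.28 and 7.55 TPM of Eif5b at P7, 8.73, 7.62 and 7.63 TPM at P14 and 10.3, 9.67 and 10.4 TPM at P21, and the P7 input libraries held 20.5 and 18.7 TPM. Its libraries in IP at P7 and in input did not overlap, with a difference of -1.31 ± 0.08 (SE, adjusted p = 2.69e-07). Over age it rose, with 0.42 ± 0.07 (SE, adjusted p = 0.000429) at P21 relative to P7, and its third-week rise (0.31 ± 0.07 (SE, adjusted p = 0.0101)) was lost without the 4 libraries with Xist (0.26, adjusted p = 0.0967). Eif5, the GTPase-activating partner of eIF2, was lower in IP by -0.36 ± 0.08 (SE, adjusted p = 0.00226), near the median of all genes, and had no call over age. That difference was lost with median-of-ratios scaling (-0.08, adjusted p = 0.317). Eif5a, the hypusine-bearing factor that relieves stalled ribosomes, had 881, 895 and 804 TPM at P7, 751, 765 and 714 TPM at P14 and 737, 668 and 632 TPM at P21 in IP, against 637 and 594 TPM in input, and was lower at P21 than at P7 by -0.34 ± 0.07 (SE, adjusted p = 0.00115). Its second-week call (-0.21 ± 0.07 (SE, adjusted p = 0.0242)) was lost without P7 replicate 1 (adjusted p = 0.0712), P7 replicate 2 (0.0834), P14 replicate 1 (0.0507) or P14 replicate 3 (0.0821), and with an unfiltered table (adjusted p = 0.0652). Eif6, which keeps the large subunit from joining too early, was lower in IP by -0.54 ± 0.09 (SE, adjusted p = 0.000272). At P21 it was lower than at P7 by -0.22 ± 0.08 (SE, adjusted p = 0.0328), although the 2 ages overlapped, and that call was lost without P7 replicate 1 (adjusted p = 0.119), P21 replicate 2 (0.118) or P21 replicate 3 (0.0874), and with an unfiltered table (adjusted p = 0.0782), the compared groups fitted alone (0.083), the Xist libraries left out (0.0959), quantile scaling (-0.18, adjusted p = 0.0677) and median-of-ratios scaling (-0.15, adjusted p = 0.162).

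The 2 genes of each of 7 related pairs were also compared within each library, as the difference of their log2(TPM + 1), called their log2 ratio here. It depends little on the scaling of the library, except for genes with low values such as Eif4ebp1 and Eif5a2. An exact permutation test over the 9 IP libraries asked whether the ratio differed in any way over the 3 ages. Its smallest possible p was 0.00357, with adjustment over the 7 pairs. Each shift below is P21 minus P7, and the p-values belong to the test over all 3 ages and not to the shift. Eef1a2 to Eef1a1 reached a mean of -1.90 ± 0.26 at P21, against -4.02 ± 0.17 at P7 (SD, n = 3 each), a shift of 2.12 (exact p = 0.00357, adjusted p = 0.00833). Eif4a2 to Eif4a1 reached 1.36 ± 0.14 at P21, against 0.32 ± 0.10 at P7, a shift of 1.04 with the same p-values. In TPM, Eif4a2 was 2.31 to 2.77 times Eif4a1 at P21, against 1.16 to 1.34 times at P7. Eif1b to Eif1 moved the other way, by -0.90, with the same exact p-values. Eif4g3 to Eif4g1 shifted by 0.52 and Eif4e3 to Eif4e by 0.31, each with an exact p of 0.00714 (adjusted p = 0.01). The mean of Eif4e3 to Eif4e was highest at P14, at -2.65 against -3.08 at P7 and -2.77 at P21. Eif5a2, the second gene for eIF5A, was at 8.26, 10.7 and 11.6 TPM at P7, 11.6, 10.8 and 12.0 TPM at P14 and 12.7, 10.6 and 14.1 TPM at P21 in IP, against 8.79 and 8.38 TPM in input. Eif5a2 to Eif5a shifted by 0.62 (exact p = 0.0179, adjusted p = 0.0208), but without P7 replicate 1, P14 replicate 1, P14 replicate 2, P21 replicate 1 or P21 replicate 3 the adjusted p of this exact test lay between 0.0625 and 0.1. For Eif4ebp2 to Eif4ebp1 the shift was -0.32, and the ratio did not pass the test (exact p = 0.254). Reads shared between such close relatives can be divided between them by the quantification, and the largest pseudogene level among the 10 set aside was 0.873 TPM.

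**Figure D4:**
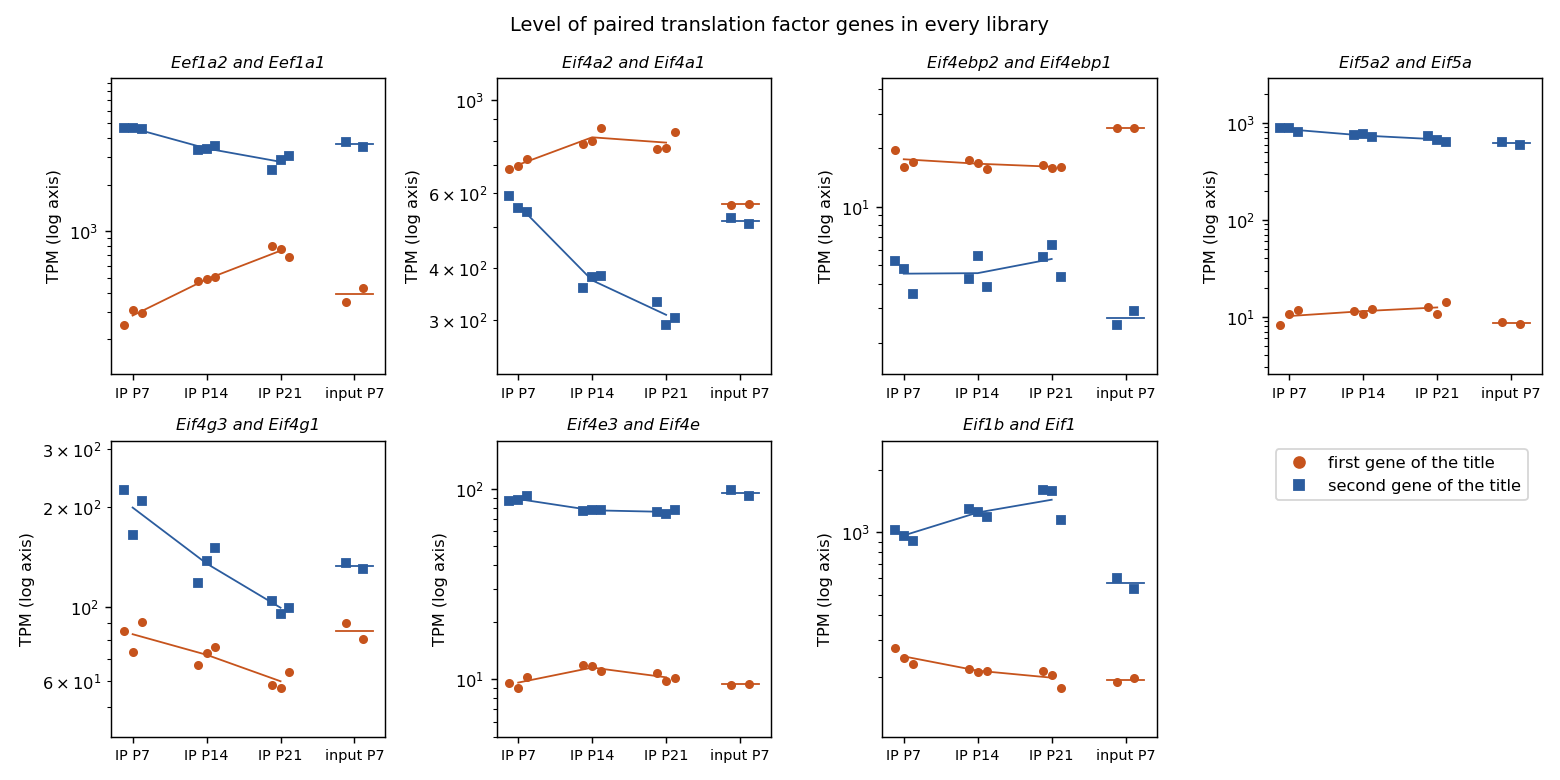
TPM (log axes) of both genes of 7 pairs in every library, for IP at P7, P14 and P21 and input at P7, with lines for group means. Eef1a2 and Eef1a1 approach each other with age, Eif4a2 and Eif4a1 move apart, with Eif4a2 at 55.5% of their summed TPM at P7, 68.6% at P14 and 71.9% at P21.

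A list of 11 of the factors was taken as terminal oligopyrimidine mRNAs, a class whose translation is known to follow mTOR. Of these 11, 8 were lower at P21 than at P7 and 1, Eef1a2, was higher, with a median of -0.41, where 32.6% and 27.3% of all tested genes were. They summed to 8032 ± 96.5 TPM at P7, 6190 ± 192 TPM at P14 and 5770 ± 411 TPM at P21 in IP (SD, n = 3 each), against 6423 ± 227 TPM in input (SD, n = 2), and Eef1a1 accounts for much of each sum. In IP at P7, 6 were higher and 3 lower than in input, with a median of 0.35, where 18.6% and 51.1% of all tested genes were. Ribosomal protein mRNAs, the main members of the class, made up 12.0 to 12.6% of TPM in IP at P7, against 6.40 and 6.67% in input. In IP they made up 9.44 to 9.87% at P14 and 9.00 to 10.4% at P21.

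Promoter windows of the factors were searched for known motifs. Windows of 300 bases, from 250 before to 50 after the RefSeq start (GRCm38.p6), were matched for 51 of the 65 genes. The letters CACGTG, which read the same on both strands and are the E-box core known for the MYC and USF families, were present in 13 of them (25.5%), against 11.1% of tested genes and 8.09% of all genes with a window. CCGGAAGT, an ETS-type motif searched on both strands, was present in 9 (17.6%), against 8.08% of tested genes, and 2 promoters held both motifs. TATAAA or TATATAA on either strand was present in 6 (11.8%), against 10.1% of tested genes. A run of at least 8 pyrimidines within 50 bases of the start, read along the gene, was present in 24 (47.1%), against 37.4% of tested genes, and a run of at least 8 purines in 15 (29.4%), against 40.6%. Of the 13 genes with CACGTG, 9 were lower and 1 was higher at P21 than at P7, with a median of -0.34, where 32.6% and 27.3% of all tested genes were. Of the 38 without it, 20 were lower and 6 higher, with a median of -0.19. For CCGGAAGT, 6 of 9 genes with it were lower and 1 higher (median -0.45), against 23 and 6 of 42 without it (median -0.19). For the TATA-like forms, 3 of 6 with a match were lower and 1 higher (median -0.21), against 26 and 6 of 45 without one (median -0.22). For the pyrimidine run, 17 of 24 with it were lower and 3 higher (median -0.24), against 12 and 4 of 27 without it (median -0.12), and for the purine run, 9 of 15 were lower and 1 higher (median -0.22), against 20 and 6 of 36 (median -0.22). These are descriptions, with no test, and the changes of other tested genes with these motifs were not counted. Among the genes with CACGTG, Eif4h was higher at P21 than at P7, and Eef1akmt4, Eif3a and Eif5a2 had no call. Their matches are not shown. The 9 CACGTG matches in genes that fell are shown in 26 bases each, with the motif in capitals, on the strand of the gene.
Eef2 (chr10:81176578-81176603, plus strand): ccggcgccgtCACGTGacgcacccaa
Eef2k (chr7:120842790-120842815, plus strand): cggggacggcCACGTGagcccgggcg
Eif1b (chr9:120492572-120492597, plus strand): tgcggacggtCACGTGgcggcggcgc
Eif3f (chr7:108934337-108934362, plus strand): agatatgattCACGTGgtataaattt
Eif3k (chr7:28981917-28981942, minus strand): ggaaggaaatCACGTGgtagacaaaa
Eif4a1 (chr11:69672597-69672622, minus strand): atcgcctccgCACGTGtaaaggtgct
Eif4e (chr3:138527030-138527055, plus strand): cgccagcgacCACGTGatcacttttt
Eif4g1 (chr16:20672663-20672688, plus strand): cagtgggtgtCACGTGatggggcgga
Eif5a (chr11:69921445-69921470, minus strand): ggggcggggtCACGTGtgtgcgtcat
The match began between 24 and 228 bases before the listed start in these 9 genes, and within 100 bases in 7 of them.

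Other genes of the pathway were tested as 9 lists with 67 tested genes, covering signalling to initiation, the stress response, poly(A) binding, reinitiation, termination, modification of elongation factors, selenocysteine, mitochondrial translation and FMRP partners. At P21 relative to P7, 22 were lower (32.8%) and 13 higher (19.4%), with a median of -0.06, where 32.6% and 27.3% of all tested genes were, with a median of -0.04. The share that was lower is near that of all genes. Bzw2, a mimic of eIF5, fell the most. For Bzw2, the levels were 192, 157 and 144 TPM at P7, 73.4, 74.7 and 75.2 TPM at P14 and 48.9, 48.5 and 49.1 TPM at P21 in IP, against 145 and 122 TPM in input at P7. It was lower at P21 than at P7 by -1.72 ± 0.09 (SE, adjusted p = 1.11e-07). Dhx29, a helicase that assists scanning, and Mknk2, a kinase of eIF4E, followed with -0.90 ± 0.08 (SE, adjusted p = 5.28e-06) and -0.86 ± 0.06 (SE, adjusted p = 7.56e-07). Impact, which restrains the eIF2alpha kinase GCN2, rose the most. Impact stood at 15.2, 18.7 and 19.7 TPM in the P7 IP libraries, 57.3, 56.7 and 57.6 TPM at P14 and 68.3, 60.0 and 68.7 TPM at P21, against 44.1 and 47.0 TPM in the input libraries. Impact was higher at P21 than at P7 by 1.82 ± 0.09 (SE, adjusted p = 4.95e-08). Dohh, which completes the hypusine of eIF5A, was higher by 0.93 ± 0.04 (SE, adjusted p = 3.84e-08), and Cyfip2, a partner of FMRP, by 0.82 ± 0.07 (SE, adjusted p = 2.14e-06). All 3 termination genes were lower at P21 than at P14, where 19.7% of all tested genes were, among them Gspt1 (eRF3A), by -0.65 ± 0.05 (SE, adjusted p = 3.38e-05).

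In IP relative to input at P7, 18 of the 67 pathway genes were higher (26.9%) and 37 lower (55.2%), with a median of -0.26, where 18.6% and 51.1% of all tested genes were, with a median of -0.33. Cyfip1, Guf1 and Mtor were lower by -1.51 ± 0.09 (SE, adjusted p = 2.59e-07), -1.43 ± 0.12 (SE, adjusted p = 1.96e-06) and -1.41 ± 0.10 (SE, adjusted p = 9.47e-07). Mtor, the kinase that signals to the eIF4E-binding proteins, stood at 5.75, 5.82 and 5.48 TPM in IP against 17.1 and 16.5 TPM in input. Dph3 and Dhps, which act in the modification of eEF2 and eIF5A, were higher in IP by 0.97 ± 0.06 (SE, adjusted p = 2.5e-07) and 0.80 ± 0.10 (SE, adjusted p = 5.05e-05). All 5 genes of FMRP and its partners were lower in IP, as were 51.1% of all tested genes.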

How the data were processed

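RNA from cortex and hippocampus of mice was sequenced after pull-down of GFP-tagged ribosomes or from whole lysate, in 11 libraries. The authors deposited TPM values for 77179 gene IDs, and the submitters' processing notes name fastp 1.0.1, Salmon 1.10.0, DESeq2 1.46.0 and mm39. The sources used here do not give the role of each tool, the annotation release or the use of strand. Because TPM have a fixed sum, a large change in some abundant mRNAs moves every other value, and depth is lost. Symbols came from a table of gene IDs and matched 50886 of them.

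A gene needed 1 TPM or more in 2 or more libraries, which 19008 did, and was tested on log2(TPM + 1) with limma 3.58.1 in R 4.3.3. One mean was fitted per group over all 11 libraries with 7 residual degrees of freedom and variances moderated along a trend in mean level. P-values were adjusted by Benjamini-Hochberg over all 19008 genes. Calls are at adjusted p below 0.05. Log2 ratios of 7 gene pairs, on TPM + 1, were tested by exact permutation over the 9 IP libraries, in 280 distinct splits. The code was tested on simulated data. Promoters are from RefSeq (GRCm38.p6), a build other than that of the TPM. Plots used matplotlib 3.10.9 under Python 3.11.15.

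The genes, roles and lists were chosen with earlier results of these data known, and so was the rule for naming. All factors that passed may be named. In each comparison the 5 that rose most and the 5 that fell most, and both genes of each pair, were given in every library. Eif2ak2 and Eif4ebp3 are exceptions and were given at P7 only. Of other pathway genes, up to 3 rises and 3 falls per comparison may be named. The alternatives were pseudocounts of 0.1 and 5, 2 other filters, 3 other scalings, no trend, the replicate number as a block, a fit of the compared groups alone, and fits that each omit 1 library. A fit without the 4 libraries with Xist was added after the data were seen.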

Additional observations from a re-analysis of the deposited data

Results flagged for a closer look

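For 13 of the 65 factors the third-week change (P21 minus P14) differed from the second-week change (P14 minus P7) by a limma test of the difference (adjusted p below 0.05). That is a smaller share than the 24.3% of all tested genes that differed. In 9 the third-week change was the higher one, where 7.46% of all tested genes had that direction. The differences, P21 minus P14 less P14 minus P7 in log2 units, were 0.70 for Eef1g, 0.65 for Eef1b2, 0.61 for Eef1e1, 0.52 for Eif3k, 0.45 for Eif3h, 0.43 for Eif3d, 0.41 for Eif6, 0.32 for Eif4a1 and 0.28 for Eif3g. All 9 were lower at P14 than at P7, by -0.25 for Eif3g up to -0.94 for Eef1e1. At P21 relative to P14, Eif3k was higher by 0.18, and Eef1e1, Eif4a1 and Eif3d were lower by -0.33, -0.27 and -0.19. The Eif3d call was lost without any 1 library other than P21 replicate 1, such as P21 replicate 2 (-0.12, adjusted p = 0.159). It was also lost in several other settings, among them median-of-ratios scaling (-0.07, adjusted p = 0.421). The Eif3k call did not hold without P14 replicate 2 (adjusted p = 0.0598), the Eif4a1 call with median-of-ratios scaling (-0.16, adjusted p = 0.0811) or without the libraries with Xist (0.074), and the Eef1e1 call without the libraries with Xist (0.0509). In 4 the third-week change was the lower, where 16.8% of all tested genes had that direction. Their differences were -0.49 for Eif3b, -0.40 for Eif4e3, -0.39 for Eif3j1 and -0.38 for Eef1akmt1. Eif3b had 71.3, 72.7 and 66.4 TPM at P7, 84.2, 87.1 and 73.0 TPM at P14 and 73.4, 66.1 and 60.8 TPM at P21, so all P14 libraries were above all P7 libraries and P21 overlapped both.

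The count depended on single libraries. Without P14 replicate 1 it was 5, without P14 replicate 2 or 3 it was 6, and without P7 replicate 1 it was 8. P14 enters both weekly changes. Groups of 2 or 3 libraries are too small to test for a library that stands apart.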

How the results depend on the processing

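Median-of-ratios scaling moved 4 counts by over 1.5 times, to 38 factors higher and 12 lower in IP than in input, and to 7 higher and 8 lower at P21 than at P14. The number with unequal weekly steps was 8 with no filter, 8 without a trend and 5 without the libraries with Xist. With single libraries left out, the counts ranged from 20 to 23 higher and 16 to 22 lower in IP than in input, 8 to 10 higher and 24 to 29 lower at P14 than at P7, 3 to 4 higher and 10 to 20 lower at P21 than at P14, 7 to 9 higher and 32 to 39 lower at P21 than at P7, 43 to 47 over the 3 ages, and 5 to 14 with unequal steps. The shift of Eif5a2 to Eif5a then ranged from 0.468 to 0.757. In IP against input, direction turned for the genes given here. Eif3j1, Eif2b3, Eif4h and Eif2ak3 had a call as reported, and the others took one of opposite sign only under the alternative. With median-of-ratios scaling the difference was 0.071 for Eif3j1, 0.18 for Eif4e, 0.054 for Eif2b3, 0.24 for Eif4g3, 0.23 for Eif2b1, 0.19 for Eif3l and 0.070 for Eif4h. With quantile normalisation it was 0.22 for Eif2d, 0.18 for Eif3j1, 0.22 for Eif2b3, 0.19 for Eif2b1, 0.029 for Eif2ak3, -0.22 for Eif3k, -0.18 for Eif4a1 and 0.44 for Eef1akmt4. The causes were not tested. Over single genes, 5642 alternative values left the call as it was (117 changed sign with no call in either), 181 lost the call, 94 gained it and 15 turned. The replicate number as a block gave 22 higher and 22 lower in IP than in input, and 9 higher and 39 lower at P21 than at P7. The labels do not say that a number marks shared animals. Deviations of same-numbered IP libraries of different ages correlated at 0.012 to 0.177, 1 of 9 above 0.1. Those of differently numbered IP libraries correlated at -0.123 to 0.102. The highest value joined replicate 3 of P7 and of P14, which both held Xist. Pairing was not assumed in the main fit, and whether it holds was not tested. Without a block Eif2s3x had no call at P14 against P7, and with it the adjusted p was 0.00674. Depth is not recorded in TPM and sets no limit that can be computed here.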
